A study of Mus musculus with 12 samples.

Results

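The comparison set the medial prefrontal cortex of male mice that carried a virus against the serotonin receptor 5-HT6R and were given morphine (AAV-5-HT6Rkd-Morphine) against that of mice with a scramble virus and saline (AAV-Scramble-Saline). It used 8 of the 12 libraries of the series, chosen by their group labels: the 4 knockdown libraries of replicates 1, 2, 3 and 5 and the 4 saline libraries of replicates 2, 3, 4 and 5. All tissue was taken at 2 weeks of extinction of conditioned place preference. In that test mice come to prefer the compartment where they received a drug, and extinction is the later waning of that preference. The remaining 4 libraries carried the scramble virus with morphine (AAV-Scramble-Morphine). Their values are given beside the others as a description. Virus and drug differ together between the 2 groups compared, no library combined the knockdown with saline, and a difference due to the virus and one due to morphine cannot be told apart here. The study asked which genes and pathways follow the loss of 5-HT6R during extinction of the morphine preference. The labels name no promoter for the virus, no age and no strain. Nor do they tie each library to its own mouse. The p-values therefore reflect only the spread among these libraries, which may be technical.

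5-HT6R is a serotonin receptor that couples to the stimulatory G protein and raises cyclic AMP, and in the brain it sits largely on the primary cilium of neurons. The prefrontal cortex holds excitatory neurons in layers, inhibitory interneurons, glia, blood vessels and, at its surface, the meninges with their fibroblasts and macrophages. Opioids such as morphine act on receptors on some of these neurons, and they also act on the hormonal stress axis, whose end product in mice, corticosterone, switches on genes in many of these cell types through the glucocorticoid receptor.

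Total counts per library ran from 52387763 to 61716601 with saline and from 42840041 to 63253993 with the knockdown. All 26 markers of cortical excitatory neurons and layers had a mean of at least 1 CPM (read counts relative to library size, scaled by TMM), while 8 of 13 markers of ependyma and choroid plexus did not. The ribosomal RNA locus CT010467.1 took 3.58 to 5.63% of counts with saline and 4.57 to 9.38% with the knockdown, and protein-coding genes took 90.1 to 92.2% and 86.0 to 91.0%. On the first principal component of all 12 libraries, which held 20.6% of the variance, the library labelled saline replicate 4 lay among knockdown replicates 1, 2 and 3. The library labelled knockdown replicate 5 lay at the opposite end, beyond all saline libraries. These 2 libraries stand apart from the others of their groups, and values without both are given beside the results that they moved most. Their part in the results was otherwise not tested. In tissue RNA, fewer cells of a type and less RNA per cell cannot be told apart.

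Htr6, the gene of 5-HT6R and the target of the virus (ENSMUSG00000028747, mm10 chromosome 4, 139061108 to 139075570, minus strand), was read first. Saline replicates 2, 3, 4 and 5 had 5.45, 6.92, 4.35 and 7.98 CPM, and knockdown replicates 1, 2, 3 and 5 had 4.49, 5.30, 3.82 and 5.46 CPM. The groups overlapped, with saline replicates 2 and 4 inside the knockdown range. Its log2 fold change of -0.37 had an SE of 0.18 (edgeR adjusted p = 0.56), and the fold had a 95% interval of 0.589 to 1.01. On log2 CPM, exact permutation (two-sided) gave a difference of -0.35 with p = 0.229. With each library left out in turn the difference stayed below 0, between -0.51 and -0.21. With scramble and morphine, Htr6 stood at 5.30, 5.16, 4.82 and 5.58 CPM. Its log2 difference between scramble morphine and saline was -0.24, and that between knockdown and scramble morphine -0.13. Neither passed in edgeR (adjusted p of at least 0.823). A loss of Htr6 RNA was therefore not detectable at this spread, so the labels cannot be checked by this gene. Of 18 tested genes for serotonin receptors and serotonin handling, 0 passed the adjusted threshold and 1 had an unadjusted p under 0.05: Htr5b, another serotonin receptor, at 0.672 ± 0.146 CPM with saline and 0.362 ± 0.134 with the knockdown (SD, n = 4). That list had 6 members above 0 and 12 below, with a median of -0.066, or -0.18 without saline replicate 4 and knockdown replicate 5.

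Across all 21958 genes tested, 10886 had a log2 fold change above 0 and 11072 below it, with a median of -0.0019. The edgeR quasi-likelihood test called 3 genes at an adjusted p under 0.05, all higher with the knockdown and morphine, which is 0.0137% of genes tested. At an unadjusted p under 0.05, 1092 genes stood higher (4.97%) and 960 lower (4.37%). With library totals as the only scaling the same split was 652 higher and 1740 lower, as that scaling moved the median of all genes to -0.048. All 4 knockdown libraries lay above all 4 saline libraries for 478 genes (2.18%) and below them for 474 (2.16%). DESeq2 called 97 genes higher and 50 lower, 0.52% and 0.268% of the 18664 genes to which it gave an adjusted p. Of these 147, 132 were protein-coding and 129 had no overlap between the groups. Counts of list members are to be read against these shares of all genes. The edgeR calls depended on single libraries. Their number was 0 without saline replicate 2, 4 or 5, without scramble morphine replicate 1, 3 or 5, or without knockdown replicate 1, 2 or 3. It was 1 without saline replicate 3, 7 without scramble morphine replicate 4 and 55 (41 higher, 14 lower) without knockdown replicate 5. With saline replicate 4 and knockdown replicate 5 both left out, an alternative chosen after seeing the data, edgeR called 564 genes higher and 514 lower. Those 2 libraries were left out because they lie away from their own groups, so leaving them out draws the groups apart by construction, and that count is no measure of the difference between the treatments.

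**Figure D1:**
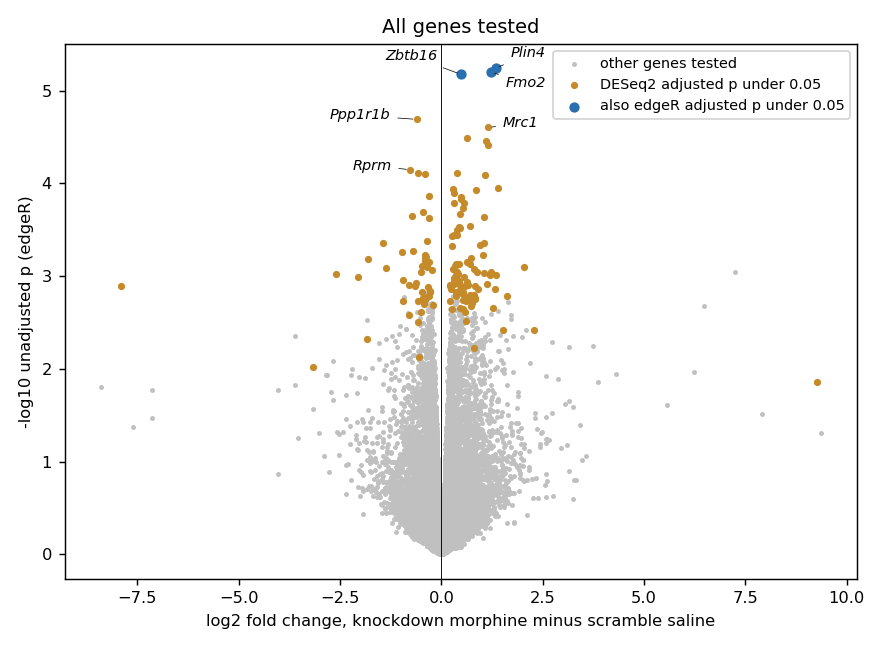
Log2 fold change (x axis) and the negative log10 of the unadjusted edgeR p (y axis) of each of the 21958 genes tested, with genes called by DESeq2 in ochre and the 3 called by both tools in blue. The 3 blue points, Plin4, Fmo2 and Zbtb16, all lie to the right of 0, and the points of the remaining DESeq2 calls lie on both sides.

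The 3 genes that rose were Plin4, Fmo2 and Zbtb16. Plin4 encodes perilipin 4, a coat protein of lipid droplets (ENSMUSG00000002831, chromosome 17, 56100591 to 56109803, minus strand). It stood at 5.66, 6.46, 5.11 and 6.64 CPM in the saline libraries and at 15.2, 11.9, 14.4 and 19.2 CPM in the knockdown libraries. Every knockdown library was well above every saline library, and knockdown replicate 5 was the highest. The fold was 2.54 (95% interval 1.9 to 3.40), a log2 fold change of 1.35 (SE 0.20, edgeR adjusted p = 0.0489). The scramble morphine libraries had 13.2, 12.7, 7.68 and 7.56 CPM, a pair inside the knockdown range and a pair between the groups, nearer to saline.

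Fmo2 encodes a flavin monooxygenase, an enzyme that oxidises drugs and other foreign compounds (ENSMUSG00000040170, chromosome 1, 162874317 to 162898726, minus strand). Saline gave 3.14, 4.70, 3.79 and 2.33 CPM and the knockdown 8.51, 8.63, 8.18 and 7.43 CPM. The knockdown values sat close together, and the lowest of them was above the highest saline value. The fold was 2.34 (95% interval 1.79 to 3.07), a log2 fold change of 1.23 (SE 0.18, edgeR adjusted p = 0.0489). With scramble and morphine, Fmo2 stood at 6.86, 6.38, 5.39 and 6.53 CPM, above all saline libraries and below all knockdown libraries.

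Zbtb16 encodes PLZF, a zinc finger transcription factor known as a target of the glucocorticoid receptor (ENSMUSG00000066687, chromosome 9, 48654297 to 48836222, minus strand). It gave 46.4, 47.7, 44.9 and 46.6 CPM with saline and 61.3, 61.3, 68.7 and 67.9 CPM with the knockdown. The saline libraries differed little among themselves, and no knockdown library came near them. The fold was 1.40 (95% interval 1.26 to 1.55), a log2 fold change of 0.48 (SE 0.07, edgeR adjusted p = 0.0489). The scramble morphine libraries, at 57.5, 69.7, 62.8 and 56.8 CPM, covered the knockdown range. For these 3 genes the log2 difference between scramble morphine and saline was 0.79, 0.85 and 0.41 in the order named, and that between knockdown and scramble morphine 0.56, 0.38 and 0.07. None of these 6 values passed in edgeR (adjusted p of at least 0.324), and the comparisons share libraries with one another.

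**Figure D2:**
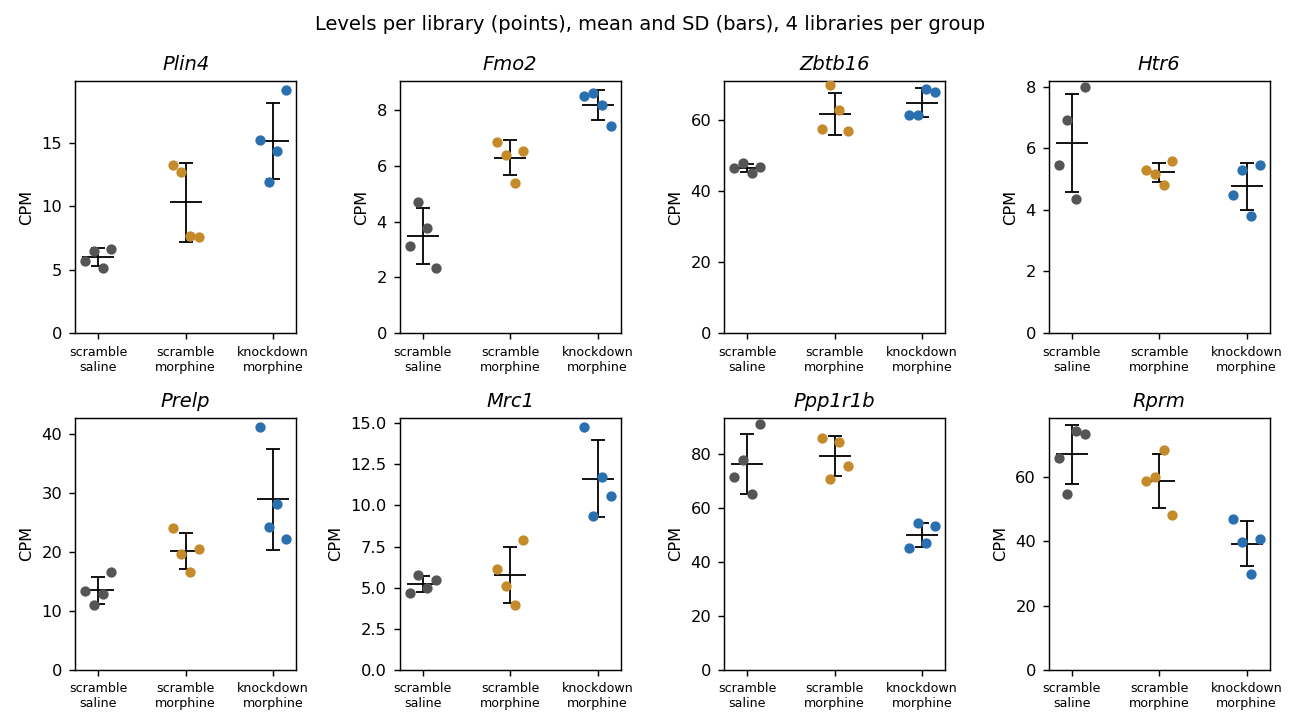
Level in CPM (y axis, from 0) of 8 genes in each library (points) of scramble saline, scramble morphine and knockdown morphine, with the mean and SD of the 4 libraries of a group as bars. Plin4, Fmo2, Zbtb16, Prelp and Mrc1 lie higher and Ppp1r1b and Rprm lower in all 4 knockdown libraries than in all 4 saline libraries, and Htr6 overlaps.

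Plin4, Zbtb16 and the transferase Sult1a1 belong to a list of 30 genes that glucocorticoids are known to switch on, all of them tested. Of these, 24 were above 0 and 6 below, and the median was 0.20 on the log2 scale against -0.0019 for all genes. Of the 30, 8 reached an unadjusted p under 0.05 as higher and 0 as lower, and 5 had no overlap. Both the 8 and the 5 include the called genes Plin4 and Zbtb16. The list was chosen with earlier results of these data known, so these counts are no separate support. Tob2, an antiproliferative protein, stood at 26.7 ± 1.87 CPM with saline and 34.6 ± 3.16 with the knockdown (SD, n = 4), a log2 fold change of 0.38. The 6 below 0 were Mt2 at -0.51, Mt1 at -0.48, Cebpb at -0.18, Per1 at -0.15, Arrdc2 at -0.15 and Errfi1 at -0.0070. In each of them the groups overlapped. They also overlapped for Fkbp5 at 0.31, Sgk1 at 0.16 and Klf9 at 0.00012, which are named after their values were seen. The list's median level was above all saline libraries in 3 of 4 knockdown libraries, knockdown replicate 2 being the exception. Those levels were 0.19, 0.077, 0.19 and 0.25 with the knockdown and 0.27, 0.25, 0.09 and 0.11 with scramble and morphine. With each library left out in turn the median lay between 0.14 and 0.26, and without saline replicate 4 and knockdown replicate 5 it was 0.13. Nr3c1, the glucocorticoid receptor gene, stood at 107 ± 7.90 CPM with saline and 92.0 ± 10.2 with the knockdown (SD, n = 4). Its log2 fold change was -0.22 (edgeR adjusted p = 0.384), with overlap between the groups. In the list of 11 receptor and hormone handling genes, 0 reached an unadjusted p under 0.05 as higher and 2 did as lower, Nr3c1 and its coactivator Ncoa1.

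Promoters of the genes that rose are shown because the glucocorticoid receptor binds a known DNA element. They are RefSeq sequences of GRCm38.p6, the assembly of mm10, from 250 bases before to 50 after the annotated start, 5′ to 3′ on the strand of the gene, with capitals for the receptor half-site AGAACA found on either strand. Plin4 has 1 entry, Fmo2 has 2 (chr1:162898709-162899008 holds 0 half-sites and is not printed), and Zbtb16 has none.
Plin4, chr17:56109733-56110032, minus strand: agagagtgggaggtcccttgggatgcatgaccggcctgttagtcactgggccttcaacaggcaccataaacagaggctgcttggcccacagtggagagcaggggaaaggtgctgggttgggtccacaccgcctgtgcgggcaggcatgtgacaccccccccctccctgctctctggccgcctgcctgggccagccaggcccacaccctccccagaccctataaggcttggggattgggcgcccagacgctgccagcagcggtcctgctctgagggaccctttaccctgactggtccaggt
Fmo2, chr1:162898444-162898743, minus strand: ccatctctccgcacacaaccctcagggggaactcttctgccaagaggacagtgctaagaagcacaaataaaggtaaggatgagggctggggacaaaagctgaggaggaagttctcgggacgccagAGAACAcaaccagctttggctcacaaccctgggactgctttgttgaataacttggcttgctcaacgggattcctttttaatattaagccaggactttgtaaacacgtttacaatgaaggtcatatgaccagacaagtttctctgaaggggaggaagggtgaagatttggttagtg
The Plin4 window held 0 half-sites and the printed Fmo2 window held 1, on the plus strand of the window at -125 from the start. Over all 32851 promoters in the table, 18.97% held the half-site. Over the 17339 promoters of tested genes it was 13.64%, and over the 40 promoters of the glucocorticoid list 6, or 15%. A match is a description of letters in the window and not a bound site.

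Plin4 and Fmo2 also belong to lists of their own kind. Among 22 tested flavin monooxygenases and other enzymes of foreign compounds, 16 were above 0 and 6 below, with a median of 0.12; 6 reached an unadjusted p under 0.05 as higher and 0 as lower, and 4 had no overlap. Sult1a1, a sulfotransferase, gave 4.29, 5.56, 3.76 and 5.86 CPM with saline and 8.89, 10.4, 7.27 and 7.33 CPM with the knockdown. No saline library reached a knockdown library, at a log2 fold change of 0.80 (SE 0.19, edgeR adjusted p = 0.29). Fmo1, a second flavin monooxygenase next to Fmo2 on chromosome 1, had a log2 fold change of 0.54. This list was higher in all 4 knockdown libraries than in all 4 saline libraries, with library medians of 0.07 to 0.23 against -0.04 to 0.03. The scramble morphine libraries had medians of 0.24, 0.17, -0.01 and 0.17. The list's median log2 difference was 0.14 between scramble morphine and saline and -0.026 between knockdown and scramble morphine. For Sult1a1 and Fmo1 the log2 difference between scramble morphine and saline was 0.66 and 0.42 (edgeR adjusted p of 0.999 for both). The list median of 0.12 between knockdown and saline was 0.079 without saline replicate 4. It was 0.068 without that library and knockdown replicate 5, and 0.035 with the replicate number as a block. Among 29 tested genes of lipid droplets and fatty acid oxidation, 22 were above 0, 8 reached an unadjusted p under 0.05 as higher and 1 as lower, and the median was 0.14. Beside Plin4 they included Ucp3, a mitochondrial carrier, at 0.52, and Ppard, a nuclear receptor for fatty acids, at 0.38. Dgat2, which makes triglyceride, was the 1 lower at -0.18. The count of 8 was 5 without saline replicate 2, 2 without knockdown replicate 1 and 3 without knockdown replicate 3.

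Beyond the 3 calls, the genes with the smallest p had edgeR adjusted p-values of 0.107 to 0.29, so none of them passed, although DESeq2 called all of them. The strongest on the lower side was Ppp1r1b, which encodes DARPP-32, a phosphatase inhibitor controlled by dopamine and cyclic AMP (chromosome 11, 98348404 to 98357796). It stood at 71.4, 77.9, 65.2 and 91.3 CPM with saline and at 45.2, 54.3, 47.0 and 53.5 CPM with the knockdown. The highest knockdown library lay below the lowest saline library. The fold was 0.654 (95% interval 0.564 to 0.759), a log2 fold change of -0.61 (SE 0.10, edgeR adjusted p = 0.107). Without saline replicate 4 and knockdown replicate 5, left out after seeing the data, it was -0.72. With scramble and morphine Ppp1r1b stood at 79.3 ± 7.35 CPM (SD, n = 4), a log2 difference of 0.05 from saline, so its level was near saline in that group.

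The next lower genes were Rprm, or reprimo, an inhibitor of the cell cycle, and Amz1, a metallopeptidase. Rprm gave 66.0, 54.7, 74.4 and 73.5 CPM with saline and 47.0, 39.7, 30.0 and 40.7 CPM with the knockdown, a log2 fold change of -0.77 (SE 0.14, edgeR adjusted p = 0.138). Its groups did not overlap. Ndufb6, a subunit of respiratory complex I, gave 32.8, 33.6, 29.1 and 32.5 CPM with saline and 24.1, 26.7, 23.4 and 23.0 CPM with the knockdown, again without overlap and at -0.40 (SE 0.07, edgeR adjusted p = 0.138). The remaining lower genes ran from -0.70 for Aldh1b1, a mitochondrial aldehyde dehydrogenase, to -0.31 for Rasl11b, a small GTPase of the Ras family. Between them lay Hrk, which promotes cell death, at -0.39, the guidance cue Slit1 at -0.35, the myosin light chain Myl4 at -0.46, the calcium-binding Mctp1 at -0.40, Hs6st2, an enzyme of heparan sulfate, at -0.38, and the microtubule protein Eml2 at -0.32.

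Genes of macrophages and of the extracellular matrix were among those with the smallest p on the higher side. Mrc1, the mannose receptor and a marker of macrophages at brain borders (chromosome 2, plus strand), gave 4.70, 5.74, 4.97 and 5.46 CPM with saline and 14.8, 9.37, 11.8 and 10.6 CPM with the knockdown. Knockdown replicate 1 was the highest and no value of one group reached the other. The fold was 2.23 (95% interval 1.68 to 2.97), a log2 fold change of 1.16 (SE 0.19, edgeR adjusted p = 0.107). Prelp, a matrix proteoglycan, gave 13.4, 11, 12.8 and 16.5 CPM with saline and 41.2, 24.1, 28.1 and 22.1 CPM with the knockdown, at 1.10 (SE 0.18, edgeR adjusted p = 0.107). Postn, the matrix protein periostin, was at 1.14, Fbln1, or fibulin 1, at 1.08, and F13a1, a coagulation factor subunit made by macrophages, at 1.39. The other genes were Tfcp2l1, a transcription factor, at 0.64, Paqr5, a membrane progestin receptor, at 0.87, Nwd1 at 0.38 and Aldh7a1, an aldehyde dehydrogenase, at 0.30. In each of these 9 genes the groups did not overlap.

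**Figure D3:**
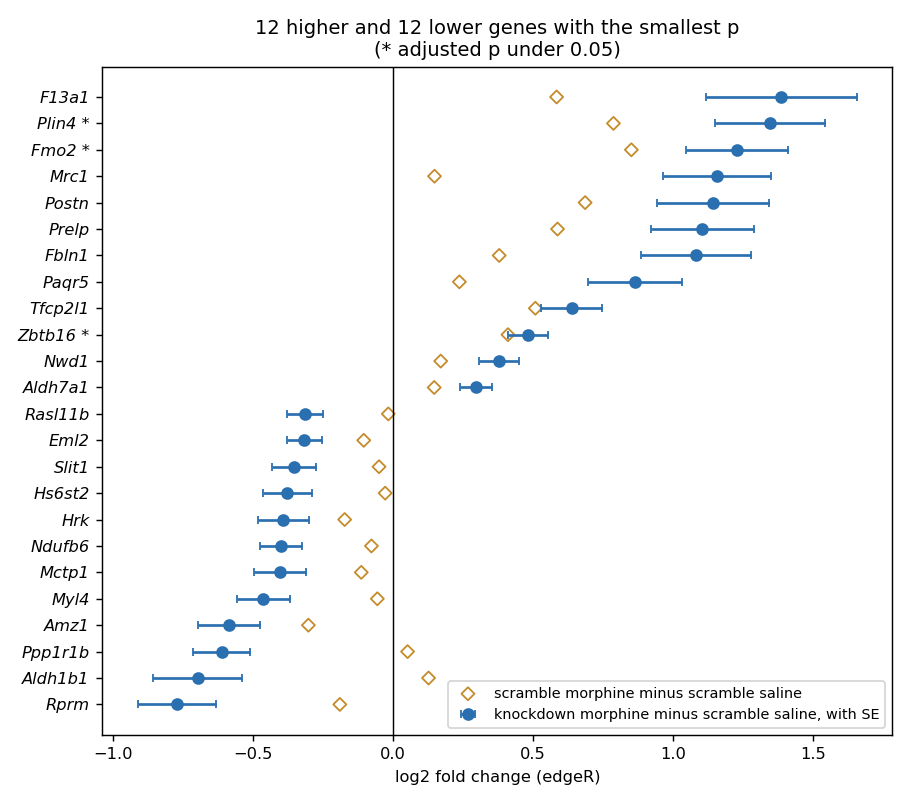
Log2 fold change (x axis) of the 12 higher and 12 lower genes with the smallest p, for knockdown morphine minus scramble saline with SE (filled points) and for scramble morphine minus scramble saline (open diamonds). Ppp1r1b is at -0.61 with its diamond at 0.05, while Zbtb16 is at 0.48 with its diamond at 0.41.

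Lists for the cells of the brain surface stood higher with the knockdown and morphine, and those of vessels had most members above 0 with overlap between the libraries. All 12 border macrophage markers were above 0, 7 of them at an unadjusted p under 0.05, with a median log2 fold change of 0.67; 2 had no overlap, Mrc1 and F13a1. Of the 12, 4 (Lyve1, Pf4, Clec10a and Folr2) had means under 1 CPM, and the summed level of the list ran from 99.8 to 137.8 CPM with saline and from 112 to 205 CPM with the knockdown. Of 26 genes of meningeal fibroblasts and collagens, 21 were above 0, 17 reached an unadjusted p under 0.05 as higher and 2 as lower, and the median was 0.73, between 0.60 and 0.93 with each library left out. Col1a2, a chain of collagen I, gave 27.7, 28.8, 29.7 and 39.7 CPM with saline and 71.1, 54.6, 54.0 and 42.8 CPM with the knockdown, a log2 fold change of 0.82 (SE 0.20, edgeR adjusted p = 0.309). Saline replicate 5 came close to the knockdown libraries there.

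Mgp, a matrix inhibitor of calcification, was at 1.27 and Fn1, or fibronectin, at 0.73. Col6a1 and Col5a1, collagen chains of the same list, stood lower at -0.56 and -0.39, and in both the groups overlapped. The median level of the fibroblast list relative to the saline mean was -0.09, -0.10, -0.20 and 0.53 in the saline libraries and 0.89, 0.63, 0.65 and 0.55 in the knockdown libraries. Saline replicate 5 therefore lay just under the lowest knockdown library. The scramble morphine libraries spanned from -0.03 to 0.78. Of 18 markers of pericytes and smooth muscle, 16 were above 0 with a median of 0.25, 6 of them at an unadjusted p under 0.05. Its library medians were -0.12 to 0.17 with saline and 0.50, 0.0058, 0.34 and 0.13 with the knockdown, so that 2 of 4 knockdown libraries lay above all saline libraries. Acta2, smooth muscle actin, gave 33.2 CPM in knockdown replicate 1 and 12.5 to 16.2 CPM in the other 3, against 6.01 to 14.1 CPM with saline, so its groups overlapped. Myl9, a smooth muscle myosin light chain, did not overlap, at 0.72. The list median was 0.39 without knockdown replicate 2. Endothelial markers were above 0 in 18 of 22, with a median of 0.13 and 2 at an unadjusted p under 0.05, the transporters Abcg2 and Slc2a1. The endothelial library medians overlapped, at -0.17 to 0.24 with saline and -0.063 to 0.34 with the knockdown, and 1 of 4 knockdown libraries lay above all saline libraries. That median was 0.048 without knockdown replicate 1, 0.070 without saline replicate 4 and 0.23 without knockdown replicate 2. How much surface tissue each library held was not tested.

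**Figure D4:**
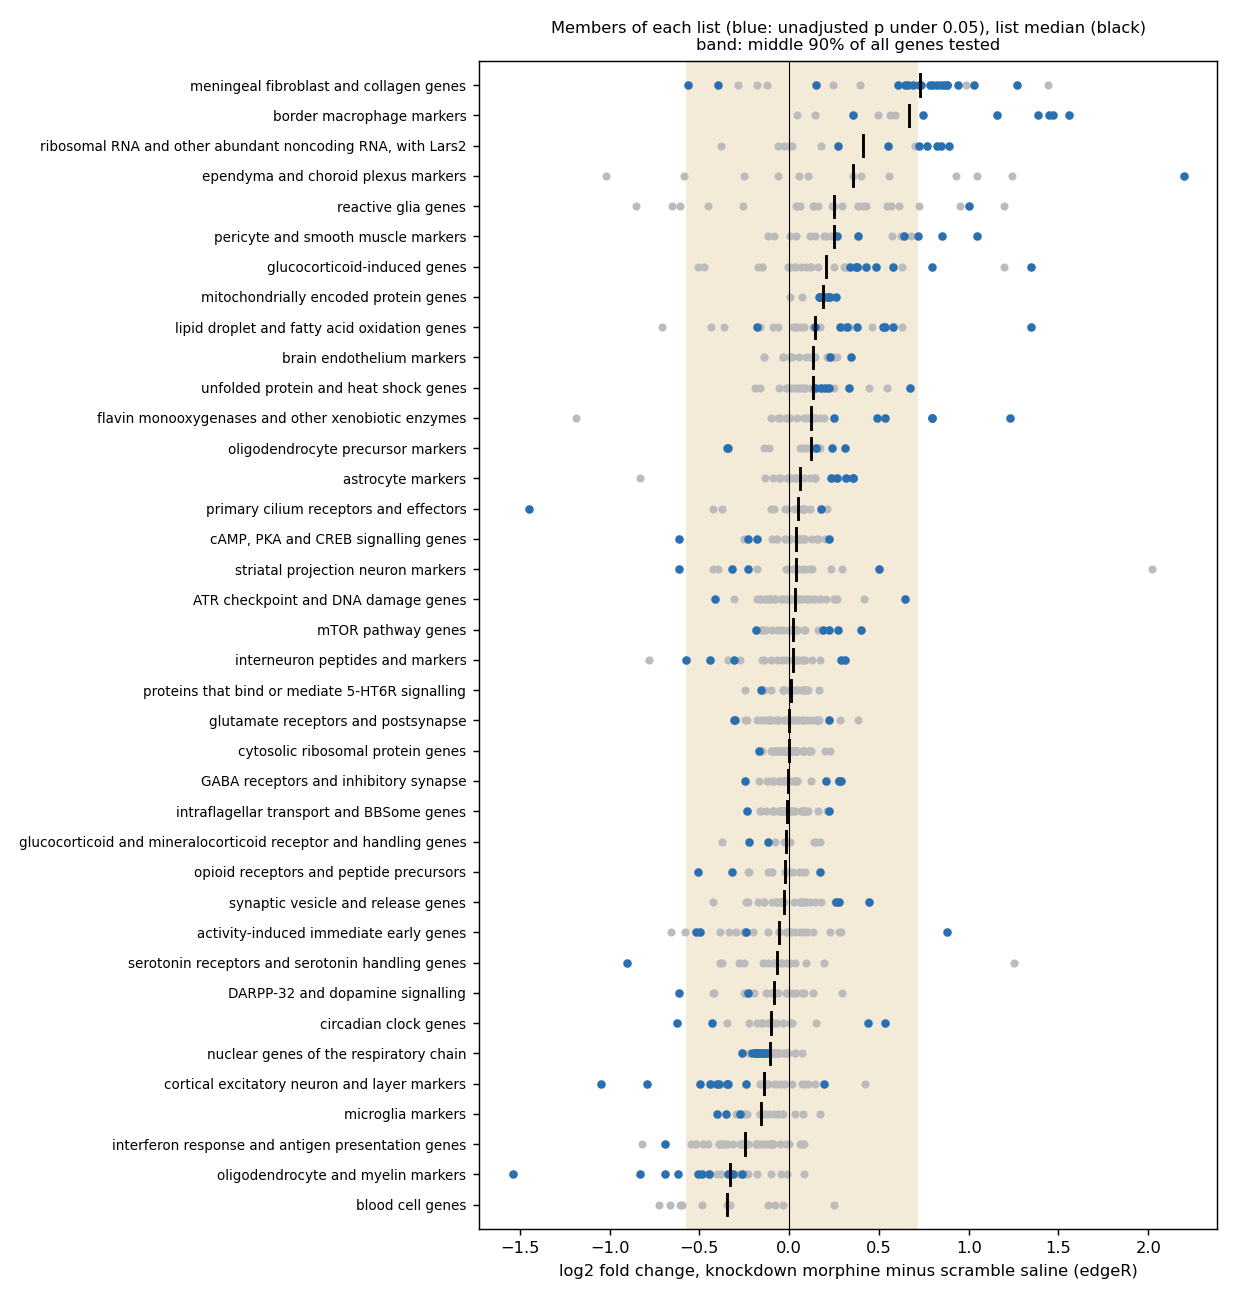
Log2 fold change (x axis) of each tested member of 38 gene lists (y axis), blue where the unadjusted edgeR p is under 0.05, with the list median as a black bar and a band for the middle 90% of all genes tested. The fibroblast and border macrophage lists have the highest medians, 0.73 and 0.67, and the band runs from -0.57 to 0.71.

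Markers of cortical excitatory neurons and layers stood lower. Of 26, 19 were below 0, 9 reached an unadjusted p under 0.05 as lower and 1 as higher, and the median was -0.14. The library medians were 0.02, -0.0024, -0.0037 and 0.06 with saline and -0.21, -0.17, -0.20 and -0.18 with the knockdown, without overlap and with little spread inside either group. The member with the lowest p was Syt6, a synaptotagmin. It gave 26.9, 28.6, 29.5 and 40.1 CPM with saline and 17.9, 14.5, 13.8 and 25.8 CPM with the knockdown, at -0.79 (SE 0.21, edgeR adjusted p = 0.339). Knockdown replicate 5 was close to the lowest saline library there. Tle4, a corepressor, was at -0.35 and Neurod2, a transcription factor of excitatory neurons, at -0.24, both without overlap. Cux1, a factor of upper layers, was the 1 higher at 0.20. The list median was -0.27 without knockdown replicate 2, and its summed level overlapped between the groups, at 3561 to 3757 CPM with saline and 3229 to 3778 CPM with the knockdown.

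Other neuronal lists were mixed in direction. Of 25 interneuron markers, 13 were above 0 and 12 below, and the sign of their median turned under 7 alternatives. The peptide genes Sst, Cort and Npy stood lower at -0.31, -0.57 and -0.44, and Sox6, a transcription factor, and Slc32a1, the vesicular GABA transporter, higher at 0.31 and 0.29, each with overlap between the groups. Of 22 genes of DARPP-32 and dopamine signalling, 15 were below 0 with a median of -0.084 (-0.13 without saline replicate 4 and knockdown replicate 5), and 2 reached an unadjusted p under 0.05, Ppp1r1b and the phosphodiesterase Pde10a at -0.23. Of 18 striatal neuron markers, 10 were above 0 and 8 below. At an unadjusted p under 0.05, 1 was higher, the adenosine receptor Adora2a at 0.50, with overlap between the groups. On the lower side there were 3, Ppp1r1b, Pde10a and the G protein regulator Rgs9 at -0.32, the last 2 with overlap. The list median of 0.036 was below 0 with library totals, with voom and without saline replicate 5. The 29 genes of cyclic AMP signalling had a median of 0.041, with the coactivator Crebbp at 0.22 and the kinase subunit Prkar2b at -0.18, both without overlap between the groups; that median was below 0 with library totals as scaling. Glutamate receptor and postsynaptic genes split 17 to 17 and genes of GABA receptors and inhibitory synapses 11 to 12. Of the latter 23, 4 reached an unadjusted p under 0.05 as higher, a larger share than among all genes, and 1 as lower. Those higher included Slc32a1, the potassium chloride cotransporter Slc12a5 at 0.28 and the receptor subunit Gabrg1 at 0.28, of which Gabrg1 had no overlap. In the synaptic vesicle list of 33, Rims3, a protein of the release site, stood out at 165, 172, 172 and 145 CPM with saline and 206, 251, 252 and 181 CPM with the knockdown. Its groups did not overlap, at a log2 fold change of 0.44 (SE 0.09, edgeR adjusted p = 0.214).

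Myelin genes stood lower, with 23 of 24 oligodendrocyte and myelin markers below 0, 10 at an unadjusted p under 0.05 and a median of -0.33. Ppp1r14a, an inhibitor of myosin phosphatase, was at -0.83 and the protease Klk6 at -1.54, of which Klk6 had no overlap. Knockdown replicate 2 had the lowest median level of the list, -0.85, against -0.35, -0.05 and -0.11 in the other knockdown libraries and -0.21 to 0.18 with saline, so the groups overlapped. Without that library the list median was -0.22 and 4 members reached an unadjusted p under 0.05. The count was also 4 without saline replicate 5 and 5 without knockdown replicate 1. In oligodendrocyte precursors 12 of 16 markers were above 0 (median 0.12, but 0.076 without saline replicate 2, 0.057 without knockdown replicate 1 and 0.18 without saline replicate 4 and knockdown replicate 5), while Olig2, a lineage transcription factor, stood lower at -0.34 without overlap.

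Microglial markers were below 0 in 19 of 22, with a median of -0.16 and 3 at an unadjusted p under 0.05: Siglech at -0.40, the purine receptor P2ry13 at -0.35 and Tmem119 at -0.27. Without knockdown replicate 2, the lowest library at -0.61, the median was -0.026, and without saline replicate 4 and knockdown replicate 5 it was -0.10. Astrocyte markers had 17 of 24 above 0 and a median of 0.062, which turned to -0.035 without knockdown replicate 5 and was also below 0 without saline replicate 4. Of the 24, 5 reached an unadjusted p under 0.05, all higher (3 without knockdown replicate 1). Aldh1l1, a folate enzyme that defines astrocytes, was at 0.36, the chaperone Clu at 0.35 and glutamine synthetase, Glul, at 0.27, each without overlap.

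**Figure D5:**
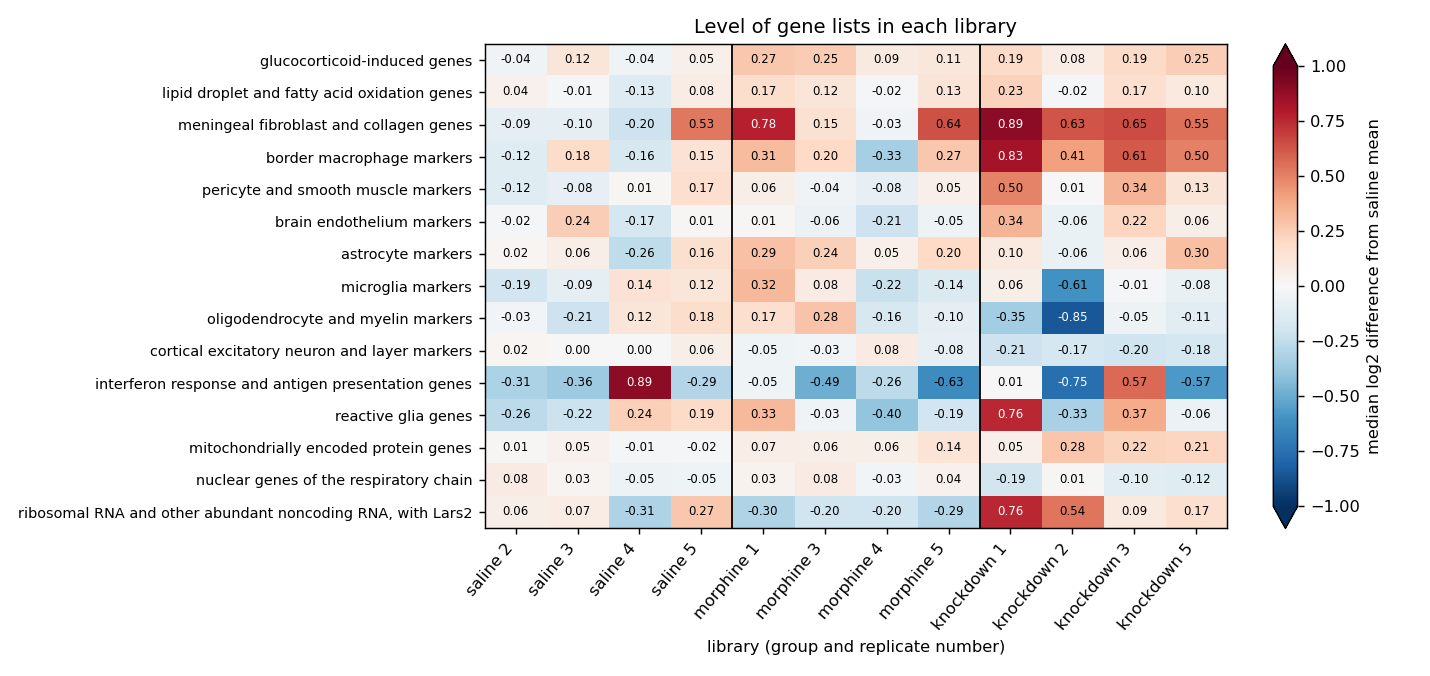
Median over the members of 15 lists of log2(CPM + 0.5) minus the mean of the gene in the saline libraries, for each of the 12 libraries (columns, by group and replicate), with the value printed in each cell. The excitatory neuron list runs from -0.21 to -0.17 in the knockdown libraries, and the interferon list from -0.36 to 0.89 within the saline libraries.

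Mitochondrial genes split by the genome that encodes them. All 13 tested protein genes of the mitochondrial genome were above 0, 11 at an unadjusted p under 0.05 and 5 without overlap, with a median of 0.19. Of 48 nuclear genes of the respiratory chain, 45 were below 0, 12 at an unadjusted p under 0.05, with a median of -0.11. The direction of both medians was the same under every alternative tried. Library medians of the mitochondrial list ran from -0.019 to 0.046 with saline and from 0.052 to 0.28 with the knockdown, so the groups barely parted. Those of the nuclear list overlapped, at -0.053 to 0.085 and -0.19 to 0.013. As a share of all counts, mitochondrial protein genes took 3.54% in knockdown replicate 1, below every saline library (3.58 to 3.76%). The other knockdown libraries had 4.06 to 4.18%. mt-Nd2, a complex I subunit (chromosome M, 3914 to 4951), gave 2083, 2243, 2187 and 2131 CPM with saline and 2498, 2811, 2615 and 2430 CPM with the knockdown. All knockdown libraries were above all saline libraries, at a log2 fold change of 0.26 (SE 0.06, edgeR adjusted p = 0.26). Among nuclear subunits, Ndufb7 of complex I was at -0.26, Sdhb of complex II at -0.18 and Ndufb10 of complex I at -0.18. The count of 12 was 3, 4 and 5 without saline replicate 2, saline replicate 3 and knockdown replicate 1, and 21 without knockdown replicate 2.

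The knockdown libraries also held more of some abundant RNAs. In the list of ribosomal RNA and other abundant noncoding RNA with Lars2, 10 of 14 were above 0, 7 at an unadjusted p under 0.05, with a median of 0.41. Lars2, a mitochondrial leucyl-tRNA synthetase, gave 2409, 2710, 1764 and 2889 CPM with saline and 6096, 4619, 3054 and 4344 CPM with the knockdown, without overlap and at a log2 fold change of 0.89 (SE 0.20, edgeR adjusted p = 0.29). It was lower with scramble and morphine, at 1675 ± 241 CPM (SD, n = 4). The mitochondrial ribosomal RNA mt-Rnr1 was at 0.27 and Rpph1, the RNA of ribonuclease P, at 0.85, both with overlap. The count of 7 was 3 without saline replicate 3 or 4 or knockdown replicate 2, and 2 without knockdown replicate 1, where the median was 0.27. With the percentage of counts on the ribosomal RNA locus in the model the list median was 0.073. These RNAs do not all carry a poly(A) tail, and the part of their share in the results above was not tested beyond that covariate, under which edgeR called 0 genes (698 higher and 697 lower at an unadjusted p under 0.05).

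Stress and signalling lists gave smaller differences. Genes of the unfolded protein response and heat shock were above 0 in 23 of 28, with a median of 0.13 and 6 at an unadjusted p under 0.05, led by the folding enzymes Pdia4 at 0.34 and Pdia3 at 0.18 and the chaperone Calr at 0.22. The library medians of knockdown replicates 1 and 2, 0.17 and 0.23, lay above all saline libraries, while those of replicates 3 and 5, 0.010 and 0.012, lay inside the saline range of -0.014 to 0.018. That count was 3 without saline replicate 2 or knockdown replicate 1 and 11 without knockdown replicate 5, and the median was 0.046 without knockdown replicate 2. Circadian clock genes were below 0 in 15 of 21 with a median of -0.10 (-0.068 without knockdown replicate 1). Among them, Ciart and Dbp were at -0.63 and -0.43, and Arntl and Nfil3 at 0.44 and 0.53. The groups did not overlap for Ciart, Dbp and Arntl. The labels used here give no time of day. Immediate early genes had a median of -0.058 that turned with the replicate block, the ribosomal covariate or without saline replicate 3 and was -0.25 without saline replicate 4 and knockdown replicate 5, with Ier5 at -0.24, Dusp5 at -0.52, Nr4a3 at -0.50 and Atf3 at 0.88.

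Lists nearest to the receptor and the drug had from 1 to 5 members each at an unadjusted p under 0.05. Of 21 proteins that bind or mediate 5-HT6R signalling, 13 were above 0 and 1 reached an unadjusted p under 0.05, Cdk5r1, the activator of CDK5, at -0.16, and the median of 0.012 turned with library totals, the ribosomal covariate or without saline replicate 3 or knockdown replicate 2. Of 28 mTOR pathway genes, 18 were above 0 with a median of 0.023 that was below 0 with library totals. Of the 28, 4 reached an unadjusted p under 0.05 as higher, a larger share than among all genes, and 1 as lower, each with overlap between the groups. They were the kinase Akt2 at 0.40, the autophagy kinase Ulk1 at 0.27, the translation repressor Eif4ebp2 at 0.22 and Sesn1 at 0.19, and on the lower side Rps6kb1, the S6 kinase, at -0.19. Cilium receptors and effectors had 11 of 18 above 0 (a median of 0.049, below 0 without saline replicate 5) and 1 member in each direction at an unadjusted p under 0.05, Tulp3 at 0.18 and the galanin receptor Galr3 at -1.45. Both had overlap between the groups. Galr3 was low, at 0.496 ± 0.116 CPM with saline and 0.180 ± 0.129 with the knockdown (SD, n = 4). Of 36 genes of intraflagellar transport and the BBSome, Ift57 stood lower at -0.23 without overlap and Ift80 higher at 0.22. Of 16 opioid receptors and peptide precursors, 10 were below 0 with a median of -0.021 that turned with the ribosomal covariate and without saline replicate 4, knockdown replicate 5 or both, and 2 reached an unadjusted p under 0.05 as lower and 1 as higher. They were the kappa receptor Oprk1 at -0.51, Rgs9, a regulator of G protein signalling, at -0.32 and the precursor-processing enzyme Cpe at 0.17, each with overlap. Of 39 genes of the ATR checkpoint and DNA damage, 22 were above 0, with Chek1 at 0.65 and Fancd2 at -0.41. The median of that list, 0.033, turned with library totals, the ribosomal covariate or without knockdown replicate 1 or 5.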

How the data were processed

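Polyadenylated RNA of 12 libraries was sequenced on the strand-marking dUTP protocol, per the labels' protocols. The authors deposited whole-number counts per gene, and the submitters' processing notes list mm10 as the build and, with no role for any of them, HISAT2 2.0.4, cutadapt 1.9, edgeR, StringTie 1.3.4d and DESeq2. The counter, annotation release and strand setting were not given in the sources used here, so overlapping, antisense and near-identical genes are uncertain. Of 55401 gene IDs, 55141 matched a symbol. Coordinates came from GENCODE release M21 on the assembly of mm10.

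Counts were tested in edgeR 4.0.16 (R 4.3.3): filterByExpr with a minimum of 10 counts, TMM scaling and quasi-likelihood fits (robust) to all 12 libraries, each group having its own mean and the spread being shared. This left 9 residual degrees of freedom, and the biological coefficient of variation was 23.2%. Tests were two-sided and adjusted by Benjamini-Hochberg at 0.05. Levels in CPM were likewise scaled by TMM. Htr6 was also tested by exact permutation of log2 CPM with a prior count of 0.5. The steps were tested on simulated data. Sampling noise was smaller than the differences among replicates (chi-square per gene of at least 13.4). That value cannot show whether the libraries came from separate mice. Each library was counted once in the tests.

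The comparison and the 38 gene lists were chosen with earlier results of these data known. Lists are described by counts and medians, without a set test. The genes named are Htr6, those that passed, the 12 higher and 12 lower with the smallest p (mean of at least 1 CPM, no predicted gene models), and of each list up to 3 members per direction at an unadjusted p under 0.05, otherwise 1 as a value. Of the genes so chosen, 3 are not reported here. Genes named outside that rule are marked as such or named to complete a small count. Alternatives were DESeq2 1.42.0, limma 3.58.1 voom with sample weights, other scalings, filters and gene sets, the 8 libraries alone, the replicate number as a block, a covariate for the ribosomal RNA locus, each library left out and, chosen after seeing the data, 2 libraries left out together.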

Additional observations from a re-analysis of the deposited data

Results flagged for a closer look

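In groups of 4 libraries, 11 values lay far from the other 3 of their group, out of 248 groups of named genes and library measures examined. Chance alone gives about 1 such value in 20 groups. In the saline group, replicate 4 was highest for Amz1 (24.5 CPM). Saline replicate 5 was highest for Rasl11b (52.0 CPM), Col1a2 (39.7 CPM) and Oprk1 (12.3 CPM), and saline replicate 3 highest for Slc2a1 (118 CPM). In the knockdown group, replicate 3 was lowest for Hs6st2 (27.8 CPM) and highest for Fmo1 (12 CPM), and replicate 5 was lowest for Neurod2 (61.8 CPM).

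Among library measures, saline replicate 5 had the fewest genes with a count (27565). The mitochondrial ribosomal RNAs took the smallest share of counts of their groups in saline replicate 4 (0.446%) and in knockdown replicate 3 (0.494%).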

How the results depend on the processing

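The 3 edgeR calls lie at the edge of the threshold. The number of genes called was 147 with DESeq2, 5 without a filter on low counts and 5 with the 8 compared libraries alone. It was 0 with limma voom (1731 genes higher and 1758 lower at an unadjusted p under 0.05), with scaling by library totals alone (652 and 1740) and with the ribosomal RNA share as a covariate (698 and 697). Leaving out 1 library gave from 0 to 55 calls. Leaving out saline replicate 4 and knockdown replicate 5 together, tried after seeing the data, gave 1078 of 22265 genes tested. Of these, 52 were among the 116 named genes, most of which were chosen for a small p in these data. Without the filter Ppp1r1b and Mrc1 passed beside Plin4, Fmo2 and Zbtb16. In the 8 libraries alone the 5 were Plin4, Mrc1, Anxa1, Olfml2a and Gm42715, the last 3 named after their values were seen. In edgeR the 3 called genes reached adjusted p-values up to 0.311 (Plin4, Fmo2, Zbtb16). The cause of these changes was not tested.

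With the replicate number as a replicate block 0 genes passed (1123 higher and 1158 lower at an unadjusted p under 0.05 in edgeR). Whether the numbers pair the libraries could not be settled from so few pairs. Deviations from the group means of the same-numbered libraries correlated at 0.154, -0.046 and 0.253 for numbers 2, 3 and 5. Knockdown replicates 2 and 5 correlated best with the saline library of their own number. Knockdown replicate 3 correlated best with saline replicate 4 (0.234). No named gene changed sign in 2892 values over 25 alternatives, of which 2743 kept their side of the threshold, 106 passed it newly and 43 lost it. Most named genes were chosen for a small p in these same libraries, which the alternatives reuse. Stable signs are therefore no separate support. Of 949 list medians, 39 moved by more than the spread between libraries. With both libraries left out, 8 of 38 medians changed sign, those of the astrocyte (-0.097), interferon (0.25), cytosolic ribosomal protein, opioid, glutamate, GABA, synaptic vesicle and interneuron lists. At this spread, differences like that of Htr6 cannot be told from none.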

Other observations

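Lists of inflammation, blood and fluid-producing cells were uneven between libraries. Of 42 interferon response and antigen presentation genes, 37 were below 0 and 1 reached an unadjusted p under 0.05, the GTPase Irgm1 at -0.69. The list median was -0.24, and it was above 0 with voom, with the ribosomal covariate and, at 0.19, without saline replicate 4, whose list level stood at 0.89 above the saline mean against -0.36 to -0.29 in the other saline libraries. The knockdown libraries themselves ran from -0.75 in replicate 2 to 0.57 in replicate 3. Reactive glia genes were above 0 in 20 of 25 with a median of 0.25, which was -0.0053 without knockdown replicate 1 and also below 0 with the replicate block, and 0.53 without saline replicate 4 and knockdown replicate 5, and Spp1, or osteopontin, stood at 1.0 with overlap between the groups. Blood cell genes were below 0 in 10 of 11, with 0 at an unadjusted p under 0.05 and the hemoglobin gene Hbb-bs at -0.73. Their median of -0.35 was -0.052 without saline replicate 3, -0.74 without saline replicate 4 and -0.82 without that library and knockdown replicate 5. Of 13 ependyma and choroid plexus markers, 9 were above 0 with a median of 0.36 (0.15 without saline replicate 4 and knockdown replicate 5), and Clic6, a chloride channel protein of the choroid plexus, was at 0.133 ± 0.0915 CPM with saline and 0.614 ± 0.397 with the knockdown (SD, n = 4). Of 55 cytosolic ribosomal protein genes, 27 were above 0 and 28 below.

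DESeq2 called genes outside the lists, and those given here were picked after their values were seen. None of them passed in edgeR with all libraries, while Anxa1 passed with the 8 compared libraries alone and without scramble morphine replicate 4, and Fzd2 without knockdown replicate 5. Timp3, an inhibitor of metalloproteinases, stood at 84.1 CPM with saline and 123.5 with the knockdown (log2 fold change 0.55, DESeq2 adjusted p = 0.0016). Efemp1, or fibulin 3, stood at 9.95 CPM with saline and 19.3 with the knockdown (0.95, DESeq2 adjusted p = 0.0022), and the basement membrane genes Nid1 and Lama1 were at 0.63 and 0.70. The frizzled receptors Fzd1 and Fzd2 were at 0.47 and 0.60, and the receptor Lrp4 at 0.49. Dio2, the deiodinase that activates thyroid hormone, stood at 50.5 CPM with saline and 72.8 with the knockdown (0.53, DESeq2 adjusted p = 0.035). Anxa1, or annexin A1, a protein that glucocorticoids are known to induce, stood at 1.09 CPM with saline and 4.47 with the knockdown, a log2 fold change of 2.04 (SE 0.47, edgeR adjusted p = 0.29). On the lower side were Nxph3, a neurexin ligand, at -0.58, and Rprml, a relative of Rprm, at -0.47.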
